A study of Mus musculus with 32 samples.

Results

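Enzymes that make foreign and endogenous compounds easier to excrete were followed in the mouse kidney between embryonic day 19 (E19) and postnatal day 35 (P35). The genes were chosen by symbol alone: the UDP-glucuronosyltransferases Ugt1, Ugt2 and Ugt3, the sulfotransferases (Sult), the flavin monooxygenases (Fmo), the carboxylesterases (Ces) and the Nat8 acetyltransferases. The rule found 52 of the 18999 genes with a value, read by 75 probes: 3 Ugt1, 8 Ugt2, 2 Ugt3, 15 Sult, 6 Fmo, 12 Ces and 6 Nat8 genes. Other genes of these families were not analysed here.

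The series holds 32 two-colour microarrays, each carrying kidney RNA of C57BL/6 mice, a common inbred strain, in Cy5 and a universal mouse reference RNA in Cy3. The groups are the stages E19 and postnatal days 1, 3, 5, 7, 10, 14, 21, 28 and 35 (P01 to P35). Each stage has 3 arrays, except P03 and P35 with 4. A protocol text in the labels describes ureteral ligation, but every source name gives normal kidney, so all mice are taken as untreated. No genotype other than the strain is given. The labels do not say whether each array is 1 animal or whether kidneys were pooled, so p-values measure the spread between arrays. Arrays of a stage are numbered here only to tell them apart.

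Values are log2 ratios of kidney to reference RNA, so a value shows the level of a gene in 1 sample relative to the same gene in the reference. A ratio of 1 gene cannot be set against that of another. A change is the mean of the later stage minus the mean of the earlier one, with its standard error after ±, and a gene is called where the adjusted p of limma's moderated test is under 0.05. Exact zeros in the deposited table were treated as not measured.

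Glucuronosyltransferases sit in the endoplasmic reticulum and attach glucuronic acid from UDP-glucuronate to hydroxyl, carboxyl or amine groups. Sulfotransferases in the cytosol attach a sulfo group from the donor PAPS. Flavin monooxygenases oxidise nitrogen and sulfur atoms, carboxylesterases cleave esters, amides and lipids, and NAT8 acetylates cysteine conjugates to mercapturates, which leave the body in urine. In the kidney much of this machinery lies in the proximal tubule, which also secretes the products.

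Each array measured 16194 to 17983 genes, and precision is limited by how many arrays a stage has. The median ratio of 11 proximal tubule markers lay between 5.33 and 6.98 on the arrays. The number block in the image names of the labels takes 3 values and was treated as a possible batch, called the image run. Xist, transcribed from the inactive X chromosome, was high on all P01 and P21 arrays, low on all P14 arrays and mixed at the other stages, with the Y-linked Eif2s3y the opposite way. Stage and Xist are therefore partly confounded wherever P01, P14 or P21 enters.

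From E19 to P35 most of these enzymes rose. Of 44 members tested, 24 rose, 3 fell and 17 were not called, so 61.4% passed against 40.2% of all 17119 genes tested. The rises stood against 21.2% of all genes and the falls against 19% of them. The median change was 1.17 over the members and 0.06 over all genes. All 4 Fmo genes tested rose, as did 8 of 12 Ces, 4 of 6 Nat8, both Ugt3 and 1 of 2 Ugt1 genes. Of 7 Ugt2 genes 2 rose and 1 fell (42.9%), and of 11 sulfotransferases 3 rose and 2 fell (45.5%), shares near the 40.2% of all genes. With the image run as a block 29 of 44 members were called, against 8481 of 17100 genes. Image run 3 holds only 1 array of E19, and within it the changes were 5.60 for Ces2g, 3.35 for Ces1d, 2.57 for Fmo2 and 3.97 for Ces1g. Within image run 2, which holds 1 array of each stage of this span, none was called. The spread there rests on 1 pair of P07 arrays, and the lowest adjusted p of the members called over all arrays was 0.101. The changes there were 5.44 for Ces2g, 4.00 for Ces1d, 2.47 for Fmo2 and 2.14 for Ces1g.

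In this span 8 members could not be tested because too few arrays of E19 or P35 measured them. These were Fmo6 (9 arrays of the series), Fmo9 (2), Sult2a2 (21), Sult2a4 (6), Sult3a1 (4), Sult3a2 (2), Ugt1a9 (16) and Ugt2b1 (0). Over all stages together, 26 of 41 members differed by the moderated F test (63.4%, against 43.6% of 16335 genes).

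The rise was spread unevenly over time. From E19 to P01 no member of 44 was called by limma, against 1.45% of all genes. An unadjusted p under 0.05 was found for 9 members, some higher and some lower at P01. With array weights 7 were called in that step, 4 as risen and 3 as fallen. The shares of all genes at these 2 settings are not given here. With a single probe per gene 1 was called, and after quantile normalization 1, against 380 of 16985 genes. In the first week, P01 to P07, 6 members rose and 3 fell of 44 (20.5%, against 7.39% of all genes, 4.83% upward and 2.56% downward). From P07 to P21, 6 rose and 2 fell of 45 (17.8%, against 15.3% of all genes, 6.25% upward and 9.08% downward), a share close to the background, and without P07 array 1 or 2 only 4 were called. From P21 to P35, 7 of 45 rose and none fell (15.6%, against 0.882% of all genes, 0.488% of them upward).

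**Figure D1:**
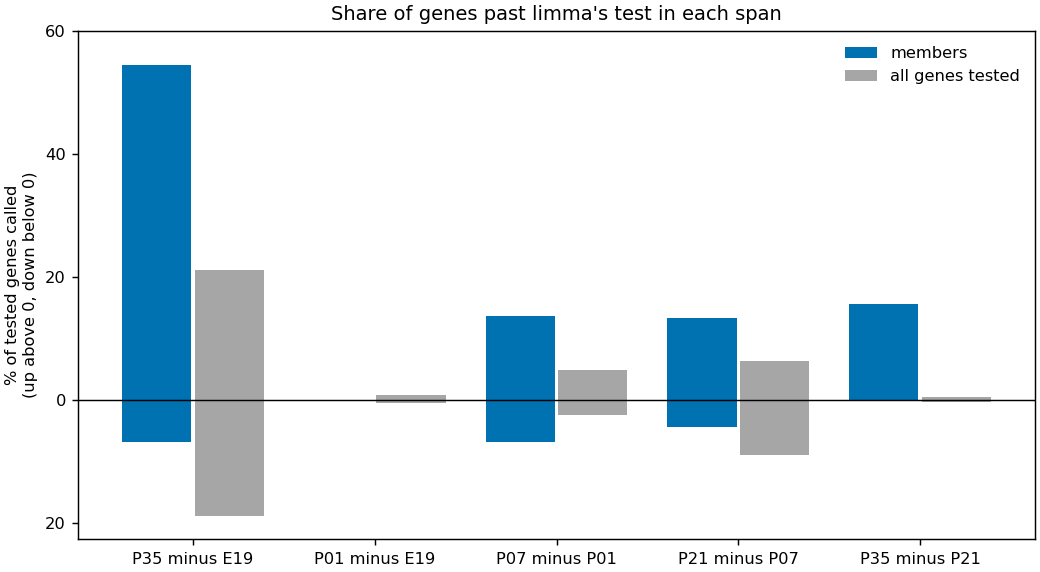
Bars give the percentage of tested genes called as risen (above 0) or fallen (below 0) in each span, for the members and for all genes tested. The members stand furthest above the background upward from E19 to P35 and from P21 to P35, and no member is called from E19 to P01.

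**Figure D2:**
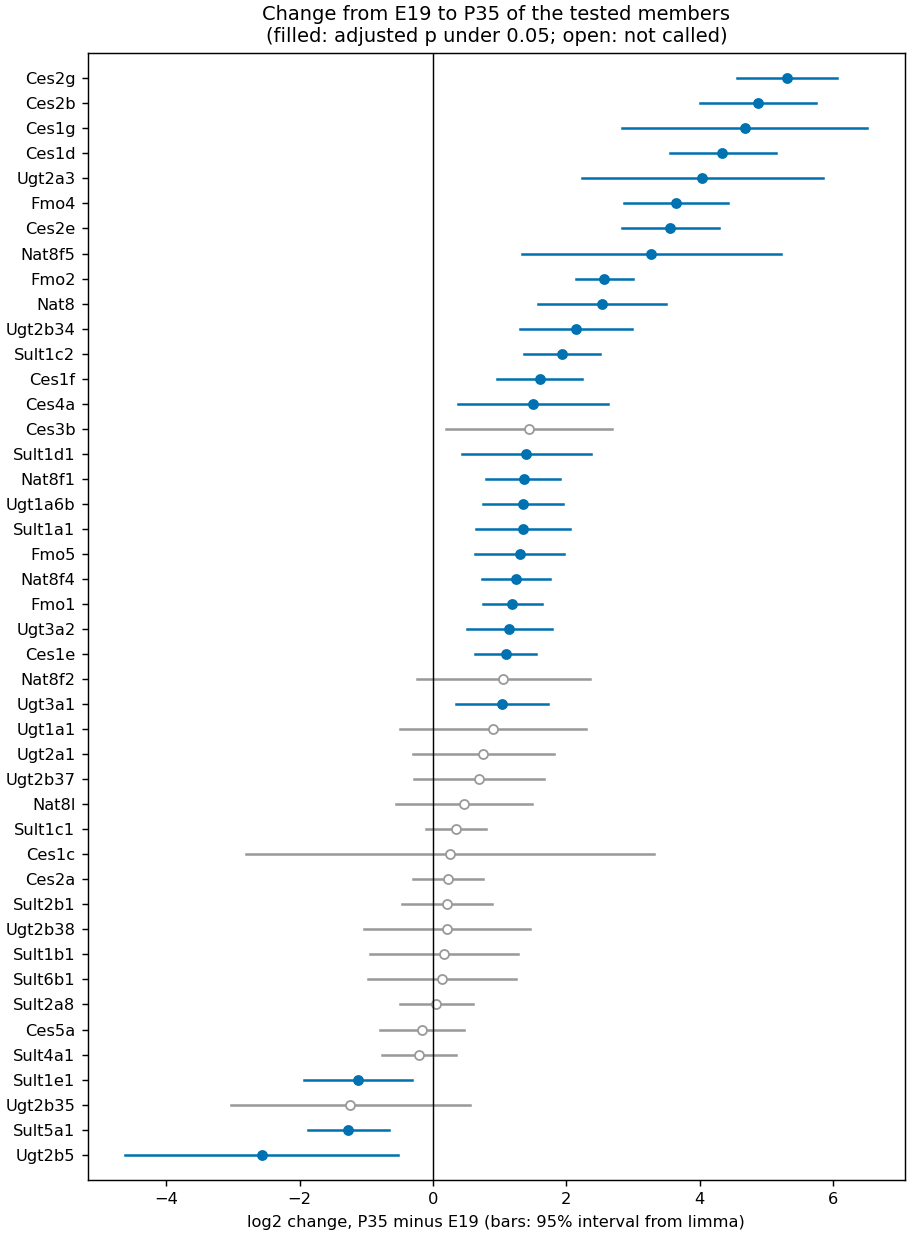
Points show the log2 change from E19 to P35 of the 44 members tested and bars its 95% interval from limma, with called members filled. The changes run from -2.57 for Ugt2b5 to 5.31 for Ces2g, and 3 called members lie below 0.

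The carboxylesterases held the 4 largest rises from E19 to P35. Ces2g, Ces2b, Ces1g and Ces1d each gained more than 4 log2 units between E19 and P35, and none of the 12 genes was called as fallen. Carboxylesterases of the Ces1 group split drugs and stored lipids, and human CES2 prefers esters with a small acyl part. The 12 genes lie on chromosome 8, with Ces1c to Ces1g and Ces5a in 1 cluster and Ces2a to Ces4a in another, in the reference gene table of assembly GRCm38.p6.

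Ces2g had ratios of -5.50, -6.16 and -5.81 at E19 and of -0.37, -0.76, -0.68 and -0.24 at P35. All 4 P35 arrays lay far above the E19 arrays, and the stages did not overlap. The change was 5.31 ± 0.36, a 39.7-fold rise (adjusted p = 2.10e-11). Its course was gradual, with stage means of -5.50 at P01, -4.19 at P07, -1.69 at P21 and -0.51 at P35. The step from P07 to P21 was called (2.49 ± 0.39, adjusted p = 6.00e-05). That from P01 to P07 (1.31 ± 0.39, adjusted p = 0.0378) lost its call without any 1 of the 6 arrays (1.22 to 1.41), and with the image run as a block (1.19, adjusted p = 0.0786).

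Ces2b had ratios of 0.65, 0.83 and 1.19 at E19, of 3.29, 2.84 and 2.97 at P21, and of 5.06, 6.36, 5.02 and 6.64 at P35. The P35 arrays lay above all P21 arrays, and those above all E19 arrays. The change over the whole span was 4.88 ± 0.42 (29.4-fold, adjusted p = 1.01e-09), of which 2.74 ± 0.42 fell after P21 (adjusted p = 0.00108). Its 2 probes had changes of 5.33 and 4.43 over the whole span.

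Ces1g, an esterase linked in mice to lipid handling, had ratios between -2.88 and 0.49 at E19, of -1.21, -1.52 and -2.04 at P21, and of 2.14, 5.11, 2.95 and 5.32 at P35. It was higher on every P35 array than on any E19 or P21 array, but the P35 arrays spread widely. The change from E19 to P35 was 4.68 ± 0.90 (25.6-fold, adjusted p = 1.38e-04) and from P21 to P35 it was 5.47 ± 0.90 (adjusted p = 0.00194). Between these ends the stage mean was 2.41 at P05, 1.09 at P07 and -1.59 at P21, and the difference between P07 and P21 was not called (-2.68, adjusted p = 0.0596).

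Ces1d, which hydrolyses triacylglycerol in liver and fat, had ratios of 1.43, 0.53 and 1.87 at P01, of 4.58, 3.35 and 3.86 at P07, and of 6.35, 6.36 and 6.51 at P21. The groups followed each other without overlap, and at P35 the ratios were level with P21, from 6.52 to 6.77. It rose by 2.65 ± 0.41 from P01 to P07 (adjusted p = 2.00e-04) and by 2.48 ± 0.41 from P07 to P21 (adjusted p = 1.37e-04). Ces2e also rose in the first week (2.22 ± 0.38, adjusted p = 5.24e-04), from -0.53, 0.76 and -0.16 at P01 to 2.61, 2.28 and 1.83 at P07. Over the whole span it rose by 3.56 ± 0.35. A second probe of Ces2e, measured on 18 arrays and on none of P01, had a change of 1.16 over the whole span.

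Ces1f (1.60 ± 0.31), Ces1e (1.09 ± 0.22) and Ces4a (1.50 ± 0.54, adjusted p = 0.0297) rose less over the whole span. The Ces4a call rested on 2 of the 3 E19 arrays, since the other did not measure it, and was lost without P35 array 3 (1.21) or array 4 (1.42), and also with zeros kept (1.07) or array weights (0.67). Ces3b (1.44), Ces1c (0.26), Ces2a (0.23) and Ces5a (-0.16) were not called. Ces3b passed with the image run as a block (1.69, adjusted p = 0.0195), and Ces5a passed as lower with all probes averaged or zeros kept (-1.08 each). The 95% interval of Ces2a, -0.30 to 0.75, was narrow, whereas that of Ces1c ran from -2.81 to 3.32. The other probe of Ces5a, measured on 24 arrays, had a change of -2.01 against -0.16 for the probe used. Ces genes are close relatives, so a probe may read a neighbour, which was not tested.

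Ces1c encodes an esterase that the liver secretes into plasma, and its ratio varied within stages more than between them. At P14 it was 2.52, 6.02 and 7.20 on the 3 arrays, while the median of 9 liver markers was 2.40, 4.31 and 5.03. At P10 it was 0.82, 1.94 and 5.53, with liver medians of 1.42, 1.34 and 3.88. At E19 it was 5.19, 2.10 and 3.87, with liver medians of 4.33, 2.60 and 2.49. The array with the highest Ces1c had the highest liver median in these stages and in each of the others except P01 and P35. At P35, Ces1c stayed between 3.79 and 4.20 with liver medians of 3.40 to 4.24. Sult2a2, a hydroxysteroid sulfotransferase, was 0.28, 5.12 and 6.25 on the P14 arrays, in the same order. Of the 9 liver markers tested from E19 to P35, 2 rose and 1 fell (median -0.17). What part liver RNA has in these values was not tested.

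**Figure D3:**
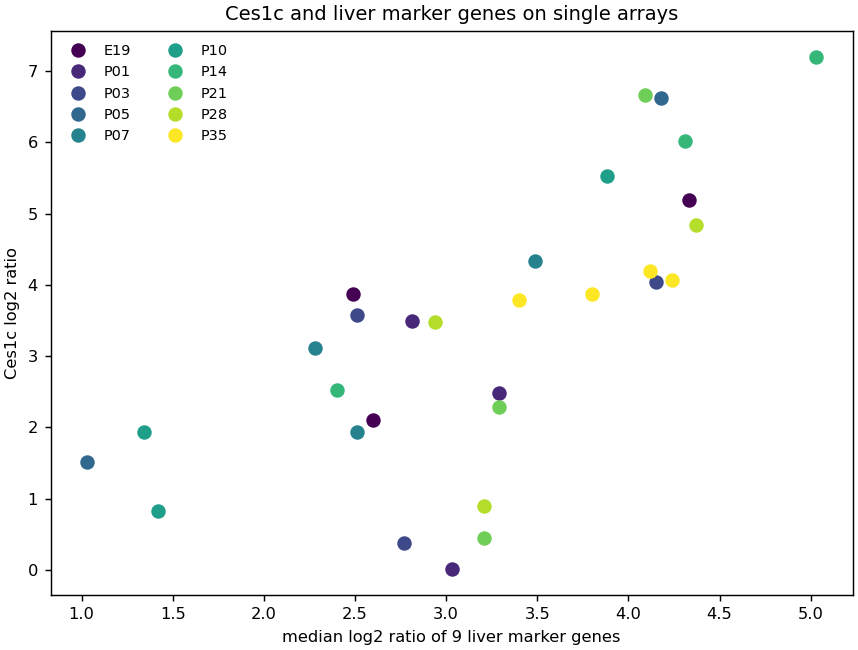
Each point is 1 array, with the median log2 ratio of 9 liver markers on the horizontal axis and the Ces1c log2 ratio on the vertical axis, coloured by stage. The P14 arrays run from 2.52 at a liver median of 2.40 to 7.20 at 5.03, and the P35 arrays stay close together.

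All 4 flavin monooxygenases tested rose, and Fmo6 and Fmo9 were not tested. Fmo4 rose most, and Fmo1 and Fmo5 rose by a little over 1 log2 unit. The Fmo2 mean changed by 0.79 from E19 to P01, 0.67 to P07, 0.81 to P21 and 0.30 to P35. Of these steps only that from P07 to P21 was called. In the mouse Fmo1 is found in liver and kidney and Fmo2 mainly in lung, and Fmo5 carries out Baeyer-Villiger oxidations. Fmo4, Fmo1, Fmo2 and Fmo6 are neighbours on chromosome 1, and Fmo5 lies on chromosome 3.

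Fmo4 had ratios of 0.44, -0.31 and 0.57 at E19, of 1.15, 0.59 and 1.14 at P07, of 2.86, 2.10 and 3.19 at P21, and of 3.27, 4.41, 4.58 and 3.23 at P35. The P35 arrays lay above all P21 arrays and the P21 arrays above all P07 arrays. It rose 12.5-fold over the whole span (3.64 ± 0.38, adjusted p = 2.21e-08) and by 1.76 ± 0.41 from P07 to P21 (adjusted p = 0.0034). Its stage mean was already 1.39 at P01. The change from E19 to P01 was not called (1.16 ± 0.41, adjusted p = 0.184), but passed with array weights (1.14).

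Fmo2 had ratios of 2.21, 2.24 and 2.05 at E19 and of 4.52, 4.96, 5.02 and 4.45 at P35, far apart and tight at both ends. The change was 2.57 ± 0.21 (5.93-fold, adjusted p = 2.95e-10). Its probes gave different sizes: 3.93 and 1.21 for the 2 probes averaged, and -0.22 for another probe, measured on 31 arrays and not used. The smaller step from P07 to P21 (0.81 ± 0.22, adjusted p = 0.0124) lost its call without P07 array 1 or 2 (0.73 each) or P21 array 3 (0.70), and with all probes averaged (0.53).

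Fmo5 had ratios of 2.57, 2.54 and 1.78 at E19 and of 2.74, 4.15, 3.37 and 4.13 at P35. The P35 arrays were all higher, the lowest of them just above the highest E19 array. The change was 1.30 ± 0.33 (adjusted p = 0.00216), and its 3 probes had changes of 1.52, 2.40 and 1.07. Fmo1 rose from 3.12 to 3.59 at E19 to between 4.15 and 4.83 at P35 (1.19 ± 0.22, adjusted p = 7.26e-05). The call was lost when a second probe, measured on 22 arrays, was averaged in (0.73), although that probe by itself had a change of 1.06.

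Members of the Nat8 family followed different courses. Nat8 and Nat8f5 had high stage means around birth, their lowest at P10 to P14, and their highest at P28 and P35. Nat8f2 also rose after P21, while Nat8f1 rose from P07 to P21. Nat8f4 had stage means of 0.99 to 1.52 from E19 to P21, then of 2.40 at P28 and 2.23 at P35. Its change from P21 to P35 was not called (0.71), but passed with array weights (0.91). Mouse Nat8 is the counterpart of the human enzyme of mercapturate synthesis, and Nat8f1 to Nat8f5 are its paralogues. Nat8f5, Nat8, Nat8f2, Nat8f4 and Nat8f1 stand side by side in that order on chromosome 6, and the first 3 of the row are those called as risen from P21 to P35. Nat8l, on chromosome 5, makes N-acetylaspartate and belongs to the family by symbol more than by function.

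Nat8f5 had ratios of 4.03, 4.78 and 5.02 at P01, of 0.91 and -1.53 on the 2 P07 arrays that measured it, of -0.71 and -2.25 on 2 P21 arrays, of 7.32, 6.50 and 4.15 at P28, and of 7.04, 6.93, 4.53 and 8.26 at P35. The P01, P28 and P35 arrays all lay far above those of P07 and P21, with no overlap. It fell by 4.92 ± 1.11 from P01 to P07 (adjusted p = 0.0088). From P21 to P35 it rose by 8.17 ± 1.06 (adjusted p = 2.79e-04), which was the largest called change of any member in any span. Array 1 of P05, P07, P10, P14 and P21 did not measure Nat8f5, so these stages rest on 2 arrays each. Over the whole span it rose by 3.27 ± 0.93 (adjusted p = 0.00749), a call that was lost within image run 3 (2.14, adjusted p = 0.214) and with the median of fat tissue markers as a covariate (3.02).

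Nat8 had ratios of 5.17, 4.99 and 6.07 at P01, of 1.61, 1.49 and 3.25 at P14, of 4.52, 5.60 and 3.26 at P21, and of 6.96, 7.45, 6.80 and 7.32 at P35. The P14 arrays were the lowest of these groups and the P35 arrays the highest, while the P21 arrays overlapped those of P01. It rose by 2.53 ± 0.47 from E19 to P35 (adjusted p = 8.86e-05) and by 2.67 ± 0.47 from P21 to P35 (adjusted p = 0.00398). The later step lost its call without P21 array 3 (2.07, adjusted p = 0.0534). The fall from P01 to P07 (-1.67 ± 0.50, adjusted p = 0.0391) lost its call without P01 arrays 1, 2 or 3 or P07 arrays 1 or 3 (-1.88 to -1.27) and with the image run as a block (-1.53, adjusted p = 0.0779).

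Nat8f2 had ratios of 3.04 and 3.60 on the 2 E19 arrays that measured it, of 1.35, 1.14 and 0.55 at P21, and of 3.81, 5.38, 3.28 and 5.03 at P35. The P35 arrays were all above the P21 arrays but overlapped those of E19. It rose by 3.36 ± 0.55 from P21 to P35 (adjusted p = 0.00312). Over the whole span it was not called (1.05), but passed with zeros kept (1.40). A second probe of Nat8f2, measured on 21 arrays, had a mean of 0.45 at both P21 and P35. The call from P21 to P35 was lost with both probes averaged (1.68) or zeros kept (1.68).

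Nat8f1 had ratios of 2.68, 3.33 and 3.89 at P07 and of 4.21, 4.27 and 4.87 at P21, with no overlap. It rose by 1.15 ± 0.29 in that step (adjusted p = 0.00662), a call that was lost without P07 array 1 (0.84, adjusted p = 0.0658), and by 1.36 ± 0.27 over the whole span. Nat8f4 rose by 1.24 ± 0.25 over the whole span, with changes of 1.43 and 1.05 for the 2 probes averaged. Nat8l was not called (0.46, 95% interval -0.56 to 1.48).

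Ugt2b37 and Ugt2b38, neighbours of Ugt2a3 on chromosome 5, were also low at P14 and P21 and higher at P35. Unlike Nat8, they were not called as lower from P01 to P07, and they fell from P07 to P21, where the change of Nat8 was 0.72. Ugt2b37 had ratios of 5.36, 6.70 and 6.32 at P07, of 2.90, 3.17 and 5.06 at P14, of 3.94, 4.52 and 4.98 at P21, and of 6.59, 7.86, 6.56 and 7.89 at P35. The P14 and P21 arrays were the low ones, and none of them overlapped with P07 or P35. It fell by 1.64 ± 0.51 from P07 to P21 (adjusted p = 0.0276) and rose by 2.74 ± 0.48 from P21 to P35 (adjusted p = 0.00393). The fall lost its call without P07 array 2 (-1.36) or 3 (-1.55), without P21 array 1 (-1.38) or 2 (-1.66), and with Xist as a covariate (-1.32). The 2 probes of Ugt2b37 disagreed over the whole span, at 2.04 and -0.65, and agreed in sign after P21, at 4.21 and 1.28.

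Ugt2b38 had ratios of 5.59, 5.72 and 5.72 at P07, of 2.17, 4.27 and 4.32 at P21, and of 6.16, 6.68, 5.89 and 6.30 at P35. The P21 arrays lay below both other groups. The fall of 2.09 on the log2 scale from P07 to P21 (-2.09 ± 0.65, adjusted p = 0.0281) lost its call without P21 array 1 (-1.38) or any 1 of the P07 arrays (-2.14 to -2.07), with the image run as a block (-1.58, adjusted p = 0.0752) and with Xist as a covariate (-1.88). The rise to P35 (2.67 ± 0.61, adjusted p = 0.0298) lost its call without P21 array 1 (1.96), 2 (3.01) or 3 (3.04), or P35 array 2 (2.53) or 4 (2.66). Neither gene was called from E19 to P35, at 0.69 for Ugt2b37 and 0.21 for Ugt2b38. Ugt2b37 passed over that span with array weights (1.08) and with only 1 of its probes (2.04), while its other probe had a change of -0.65.

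The sequences around the starts of Nat8, Nat8f5, Ugt2b37 and Ugt2b38 are printed because these 4 genes dip before P28 and lie in 2 clusters of paralogues. Each run holds 250 bases before to 50 bases after the start, from RefSeq on build GRCm38.p6, read 5′ to 3′ on the minus strand, at chr6:85832230-85832529 (Nat8), chr6:85820923-85821222 (Nat8f5), chr5:87254739-87255038 (Ugt2b37) and chr5:87424154-87424453 (Ugt2b38). Capitals mark GTTAAT, a core of the site bound by HNF1 factors, and CAAAGTCCA, a site form bound by HNF4, on either strand.
Nat8: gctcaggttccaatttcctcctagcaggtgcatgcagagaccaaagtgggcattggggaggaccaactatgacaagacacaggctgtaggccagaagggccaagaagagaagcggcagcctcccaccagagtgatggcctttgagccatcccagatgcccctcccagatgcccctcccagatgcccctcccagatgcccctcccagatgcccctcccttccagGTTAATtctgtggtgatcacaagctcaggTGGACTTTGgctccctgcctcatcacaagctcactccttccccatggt
Nat8f5: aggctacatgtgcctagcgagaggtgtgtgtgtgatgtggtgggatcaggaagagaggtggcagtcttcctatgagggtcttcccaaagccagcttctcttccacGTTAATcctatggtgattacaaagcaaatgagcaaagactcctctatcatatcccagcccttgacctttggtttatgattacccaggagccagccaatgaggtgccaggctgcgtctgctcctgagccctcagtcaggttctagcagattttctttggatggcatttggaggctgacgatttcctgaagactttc
Ugt2b37: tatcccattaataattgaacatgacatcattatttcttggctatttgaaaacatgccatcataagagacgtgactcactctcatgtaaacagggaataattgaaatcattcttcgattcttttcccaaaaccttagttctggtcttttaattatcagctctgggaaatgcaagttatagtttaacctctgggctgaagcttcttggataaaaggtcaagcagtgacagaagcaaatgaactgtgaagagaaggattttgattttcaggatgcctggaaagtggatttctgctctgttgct
Ugt2b38: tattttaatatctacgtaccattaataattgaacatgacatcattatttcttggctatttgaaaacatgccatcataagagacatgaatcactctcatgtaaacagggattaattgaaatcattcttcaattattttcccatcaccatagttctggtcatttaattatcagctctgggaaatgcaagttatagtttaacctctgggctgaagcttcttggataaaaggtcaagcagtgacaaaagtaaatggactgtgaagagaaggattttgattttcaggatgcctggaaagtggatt

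Nat8 held GTTAAT at window position 224 and CAAAGTCCA, on the other strand, at position 253, counted from the first base printed. Nat8 has 2 promoter entries, and the one printed was picked because it held more of these motifs. The other entry held neither. Nat8f5 held GTTAAT at position 106, and neither set of letters was in the windows of Ugt2b37 and Ugt2b38. The Ugt2b37 and Ugt2b38 windows were alike, with 273 of 314 aligned columns identical (86.9%). Those of Nat8 and Nat8f5 shared 46% of their columns, within the 44.2% to 46.9% of pairs that set a Nat8 window against a Ugt2 window. Hybridisation of 1 paralogue's RNA to the other's probe was not tested.

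Promoter entries existed for 43 of the 52 members, 49 entries in all. GTTAAT was in 13 of the 49 (26.5%), against 7.1% of all 32851 promoters, and CAAAGTCCA in 2 (4.08%), against 0.475%. The TATA motif TATAAA was in 12 (24.5%, against 13.6% of all) and TTNCNNAA, a form of the C/EBP site that overlaps many other motifs, in 32 (65.3%, against 40.7%). TTCNNNGAA, a STAT site form, was in 4 (8.16%, against 8.3%) and the STAT form with 1 more base in its gap in 4 (8.16%, against 6.95%). A full-length HNF1 palindrome, the same without its last base, an extended NRF2 element, a steroid receptor palindrome and a direct repeat for nuclear receptors were in 0 of the 49. In all, 11 motifs were searched, on both strands, and GTTAAT also counts wherever a longer HNF1 form is found. A match describes letters and not binding.

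**Figure D4:**
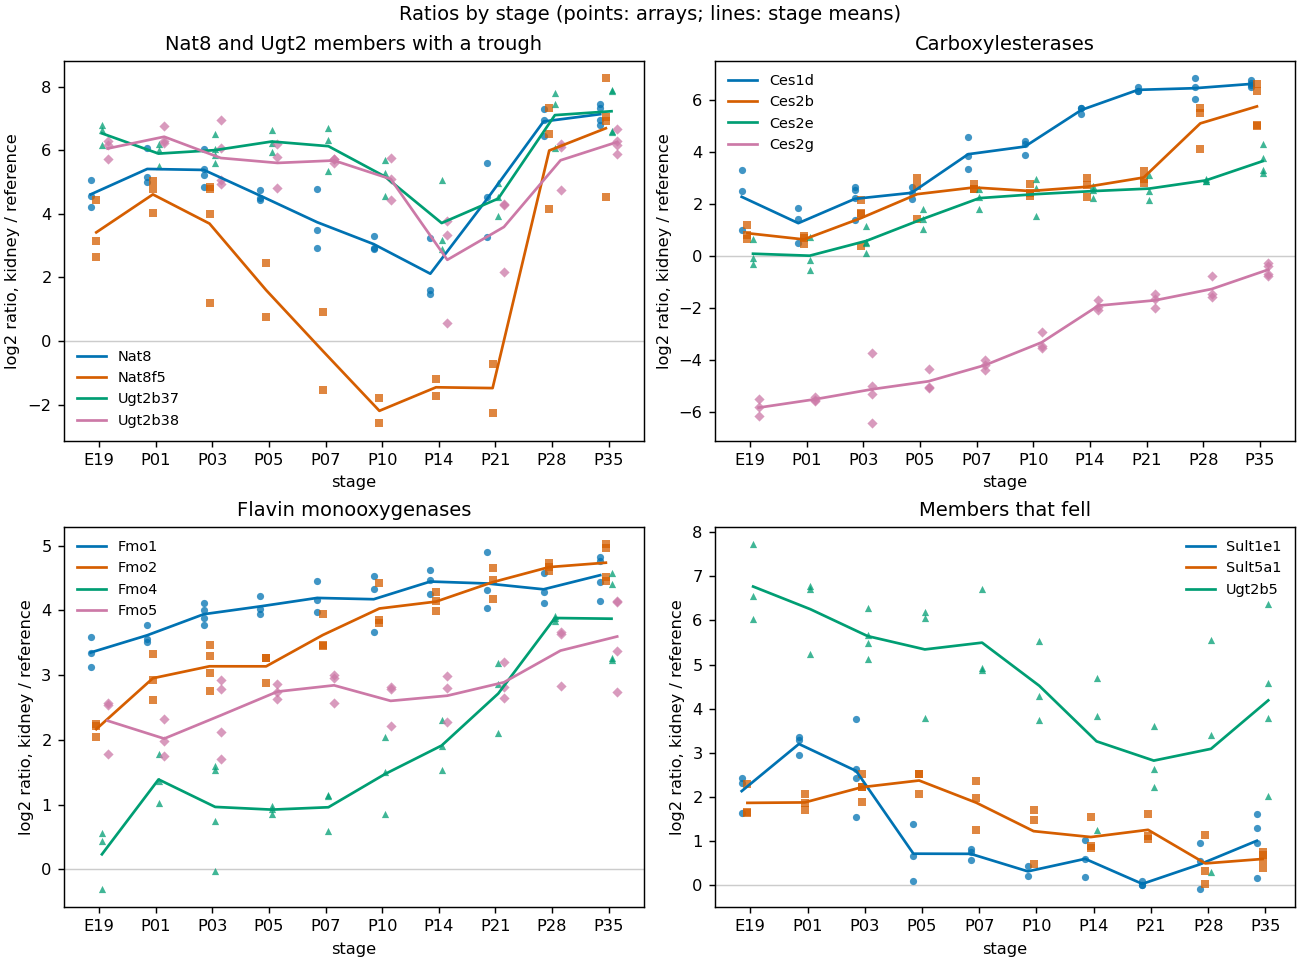
Panels show log2 ratios of kidney to reference by stage, with points for arrays and lines through stage means. Nat8, Nat8f5, Ugt2b37 and Ugt2b38 dip before P28, and the carboxylesterases and flavin monooxygenases climb. Sult1e1, Sult5a1 and Ugt2b5 have lower means at P35 than at E19, with rises at some stages between.

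The remaining glucuronosyltransferases split between gain and loss. Ugt2a3, Ugt2b34, Ugt1a6b, Ugt3a1 and Ugt3a2 rose between E19 and P35, and Ugt2b5, next to Ugt2b37 on chromosome 5, fell. Ugt2 enzymes conjugate steroids, bile acids and drugs, UGT1A6 conjugates small phenols, and human UGT3A1 uses N-acetylglucosamine in place of glucuronic acid.

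Ugt2a3 had ratios of 1.08 and 1.00 on the 2 E19 arrays that measured it, of 1.85, 2.06 and 2.23 at P21, of 6.29, 4.00 and 2.32 at P28, and of 4.83, 5.10, 4.15 and 6.25 at P35. All P35 arrays lay above those of E19 and P21, and the P28 arrays were scattered. The change from E19 to P35 was 4.04 ± 0.85 (16.5-fold, adjusted p = 0.00114). From P21 to P35 the change of 3.03 did not pass the test, and with the image run as a block it passed (3.18, adjusted p = 0.0394).

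Ugt2b34 had ratios of 1.55, 1.16 and 1.78 at E19 and of 4.01, 3.38, 4.34 and 2.84 at P35, without overlap. The change was 2.14 ± 0.41 (adjusted p = 1.17e-04). Ugt1a6b had ratios of -0.26, -0.74 and -0.34 at E19 and of 1.43, 0.04, 1.43 and 0.74 at P35, and P35 array 2 was the closest to E19. It rose by 1.35 ± 0.29 (adjusted p = 5.03e-04). Its 2 probes, each measured on all 32 arrays, had changes of 0.95 and 1.76, and with only the first the gene was not called.

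Ugt3a2 had ratios of 3.82, 3.46 and 3.56 at E19 and of 4.90, 4.62, 5.09 and 4.41 at P35, and Ugt3a1, its neighbour on chromosome 15, of 4.36, 4.00 and 3.94 and of 4.91, 5.19, 5.66 and 4.79. In both genes every P35 array was above every E19 array. Ugt3a2 rose by 1.14 ± 0.31 (adjusted p = 0.00396), while a second probe of it, measured on 25 arrays, had a change of 4.77. Ugt3a1 rose by 1.03 ± 0.34 (adjusted p = 0.0157), a call that was lost without P35 array 3 (0.86) or E19 array 3 (0.95), and after quantile normalization (0.55).

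Ugt2b5 had ratios of 7.72, 6.03 and 6.55 at E19, of 2.22, 2.64 and 3.62 at P21, and of 3.78, 4.58, 2.03 and 6.37 at P35. The E19 arrays were high, but P35 array 4 lay above the lowest of them, so the stages overlapped. The fall of 2.57 on the log2 scale (-2.57 ± 0.99, adjusted p = 0.0405) lost its call without P35 array 1 (-2.44), 2 (-2.70) or 3 (-1.85), without E19 array 1 (-2.10) or 3 (-2.68), and with the image run as a block (-1.98, adjusted p = 0.0661). Ugt1a1, the bilirubin-conjugating enzyme (0.90), Ugt2a1 (0.75) and Ugt2b35 (-1.24) were not called, and the intervals of all of them included 0. With the image run as a block Ugt2b35 passed as lower (-2.60, adjusted p = 0.022), and without P35 array 4 Ugt1a1 passed (1.68). Ugt2a1 passed with zeros kept (0.89) or array weights (1.32).

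Among the sulfotransferases the share called was near that of all genes. Sult1c2, Sult1a1 and Sult1d1 rose, and the oestrogen sulfotransferase Sult1e1 and Sult5a1 fell. Sult1a1 sulfates phenols and Sult1d1, in the mouse, catecholamines and other small amines.

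Sult1c2 had ratios of 2.69, 2.66 and 2.31 at P01, of 3.97, 3.88 and 3.96 at P07, and of 4.83, 4.26, 4.86 and 4.27 at P35. The 3 stages were separate from each other. It rose by 1.38 ± 0.30 in the first week (adjusted p = 0.00441) and by 1.93 ± 0.28 from E19 to P35 (adjusted p = 2.98e-06). Its neighbour Sult1c1 was not called (0.35, 95% interval -0.10 to 0.79), but passed with the image run as a block (0.48, adjusted p = 0.0397), within image run 3 (0.91, adjusted p = 0.0272) and without E19 array 1 (0.60).

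Sult1a1 had ratios of 5.52, 5.23 and 5.06 at E19 and of 6.88, 6.24, 6.52 and 6.82 at P35, without overlap. It rose by 1.35 ± 0.34 (adjusted p = 0.0024), which was lost after quantile normalization (0.78) and within image run 3 (1.30, adjusted p = 0.0853). Sult1d1 had ratios of 8.64, 9.22 and 8.84 at E19 and of 10.99, 10.68, 8.86 and 10.68 at P35, where array 3 stood with the E19 arrays. Its rise of 1.40 ± 0.47 (adjusted p = 0.0193) was lost without E19 array 1 (1.27) or P35 array 1 (1.17), 2 (1.27) or 4 (1.28), within image run 3 (0.85) and after quantile normalization (0.46). Without P35 array 3 it was 1.88.

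Sult1e1, which inactivates oestrogens, had ratios of 2.96, 3.36 and 3.29 at P01, of 0.58, 0.82 and 0.75 at P07, and of 0.97, 1.31, 0.16 and 1.61 at P35. The P01 arrays stood far above those of P07 and P35. It fell by 2.49 ± 0.42 from P01 to P07 (-2.49, adjusted p = 5.11e-04). The smaller fall from E19 to P35 (-1.13 ± 0.39, adjusted p = 0.0231) lost its call without E19 array 1 (-1.03) or 2 (-0.97) or P35 array 3 (-0.84), and within image run 3 (-1.41, adjusted p = 0.0871).

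Sult5a1 had ratios of 2.30, 1.64 and 1.67 at E19 and of 0.76, 0.39, 0.68 and 0.57 at P35, with no overlap. It fell by 1.27 on the log2 scale (-1.27 ± 0.30, adjusted p = 0.00107). Sult2b1, a cholesterol and steroid sulfotransferase, was -0.64, -1.25 and -0.12 at P07, 0.28, 0.68 and 0.49 at P21 and -0.74, -0.50 and -0.90 at P28. Only the P21 arrays were above 0 among these, and the rise from P07 to P21 (1.16 ± 0.35, adjusted p = 0.0245) lost its call without P07 array 1 (1.17) or 2 (0.86) or P21 array 2 (1.06) or 3 (1.15). The other sulfotransferases tested over the whole span, Sult1b1, Sult2a8, Sult2b1, Sult4a1 and Sult6b1, had changes between -0.21 and 0.21 and were not called. Sult4a1 passed as lower with array weights (-0.47).

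Much of the rise after P21 was already present at P28. In the step from P21 to P28, added after the stage courses had been seen, 6 members rose and none fell of 44 (13.6%, against 0.269% of all genes, 0.155% upward and 0.113% downward). They were Nat8f5 (7.47 ± 1.11, adjusted p = 0.00592), Ces1g (4.80 ± 0.96, adjusted p = 0.0221), Nat8f2 (2.93 ± 0.59, adjusted p = 0.0289), Ugt2b37 (2.62 ± 0.51, adjusted p = 0.0176), Nat8 (2.44 ± 0.50, adjusted p = 0.0261) and Ces2b (2.09 ± 0.45, adjusted p = 0.042). These comparisons share the P21 arrays with P35 minus P21. Within image run 3 the 7 changes from P21 to P35 kept their direction, from 2.13 for Nat8 to 7.28 for Nat8f5, and none passed the test there. With only the 2 stages in the fit, none passed in either step. Without any 1 of the P21 arrays, or without P28 array 1 or 2, the 6 calls from P21 to P28 came down to 1. The 1 left was Nat8f5, except without P21 array 2 (Nat8) or 3 (Ugt2b37), where Nat8f5, measured on only these 2 P21 arrays, could not be tested.

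The Xist ratio varied with these genes. The 3 P21 arrays had Xist ratios of 1.97, 1.92 and 1.98, P28 had -5.42, -5.48 and 2.28, and P35 had 2.12, -5.81, 2.51 and -5.36. On the arrays with low Xist, Ces1g was 4.45 and 4.27 at P28 and 5.11 and 5.32 at P35. On those with high Xist it was 0.90 at P28 and 2.14 and 2.95 at P35. The P28 and P35 arrays with high Xist were thus lower than the others, yet each was above the P21 arrays, where Ces1g lay between -2.04 and -1.21.

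Nat8f2 had the same order, with 4.71, 4.14, 5.38 and 5.03 where Xist was low and 2.98, 3.81 and 3.28 where it was high. Ces2b had 5.69, 5.52, 6.36 and 6.64 on low-Xist and 4.14, 5.06 and 5.02 on high-Xist arrays, and Ugt2b37 had 7.45, 7.80, 7.86 and 7.89 against 6.06, 6.59 and 6.56. For each of these 3 genes the 2 sets of arrays did not overlap. For Nat8f5 they did, with 7.32, 6.50, 6.93 and 8.26 on low-Xist and 4.15, 7.04 and 4.53 on high-Xist arrays. Ugt2b5 was 5.56, 3.41, 4.58 and 6.37 on low-Xist and 0.31, 3.78 and 2.03 on high-Xist arrays. No test was made between arrays sorted by Xist, since the labels give no sex.

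With Xist as a covariate, 6 of the 7 calls from P21 to P35 remained, and Ugt2b38 (2.52, adjusted p = 0.0643) did not. Of the 6 calls from P21 to P28 only that of Nat8f5 remained. The changes that no longer passed were 4.32 for Ces1g, 2.53 for Nat8f2, 2.31 for Ugt2b37, 2.25 for Nat8 and 1.82 for Ces2b. The P14 arrays were all low in Xist and also had low ratios of Nat8, Ugt2b37 and Ugt2b38. Ces1g differed, at 0.86, 1.84 and 1.88 on the P14 arrays, above all P21 arrays. Xist entered the fit with a single slope shared by all stages, and no P21 array had low Xist. A call kept or lost with that covariate therefore cannot separate Xist from stage. What part sex has in these values was not tested.

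**Figure D5:**
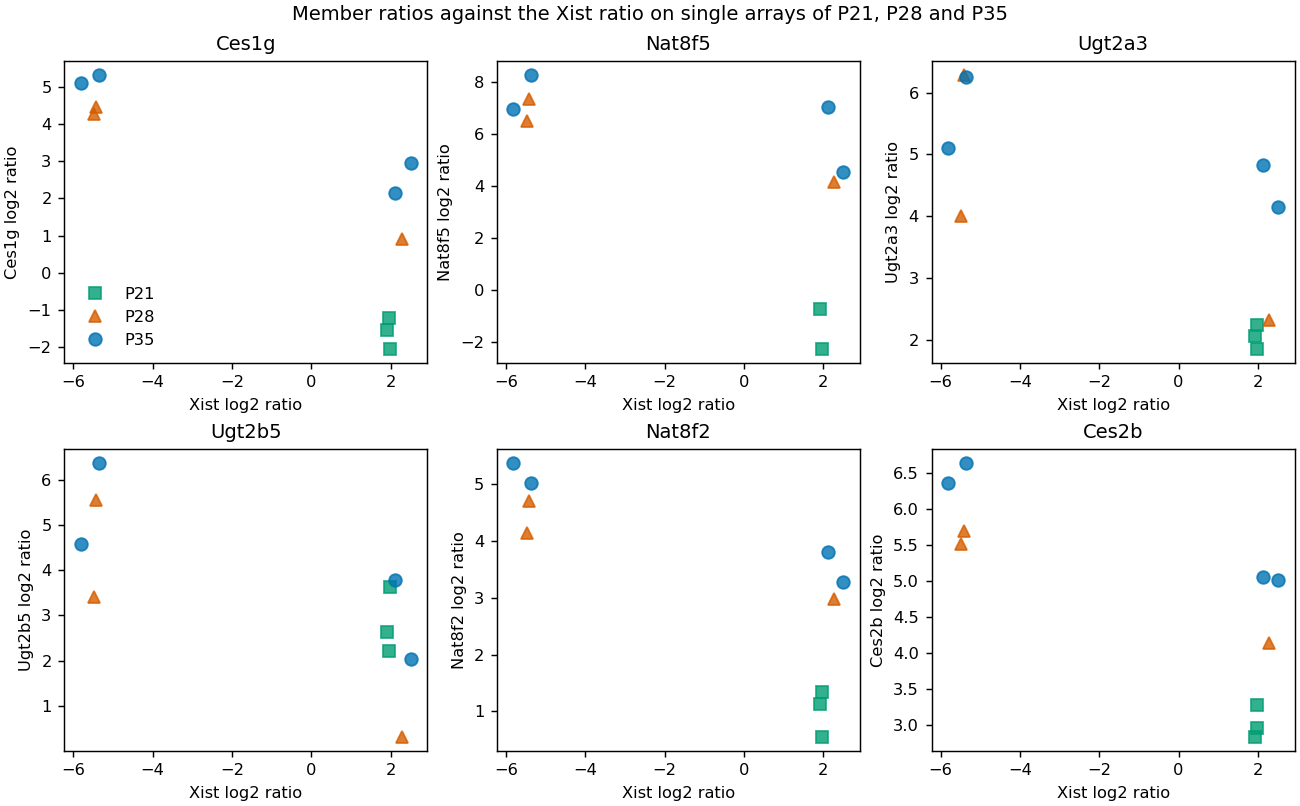
Each panel plots a member's log2 ratio against the Xist log2 ratio on the arrays of P21, P28 and P35. Ces1g, Nat8f2 and Ces2b lie higher on the low-Xist arrays of P28 and P35 than on the high-Xist ones, which still lie above the P21 arrays.

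Fat tissue markers also moved with the stages. The median of 6 adipose markers was 0.01 to 0.37 at E19, 0.78 to 1.13 at P01, 4.91 to 6.05 at P07 and 2.31 to 5.57 at P35. From E19 to P35, 4 of 5 tested markers rose (Adipoq by 5.56, Cidec by 4.66, Retn by 4.03 and Plin1 by 3.98) and Fabp4 fell (-0.92), with a median of 4.03. From P01 to P07, 3 of 5 rose, with a median of 3.23. With the adipose median as a covariate, 21 of the 27 calls from E19 to P35 remained. Of those that did not, Fmo5 (0.83) and Sult1d1 (0.82) were smaller by more than 1.5 times, while Nat8f5 (3.02), Sult1e1 (-1.31), Ugt2b5 (-2.31) and Ugt3a1 (0.97) were not. Calls also remained for 5 of the 9 from P01 to P07, where Ces1f (1.17), Ces2b (1.59), Nat8 (-1.73) and Nat8f5 (-5.19) no longer passed. Ces1d, which fat also expresses, kept its calls with that covariate. On P14 array 2, with an adipose median of 0.15, the Ces1d ratio was 5.71, against 5.71 and 5.48 on the other P14 arrays with 5.57 and 5.84. The adipose median itself differed between stages, so a call kept or lost with that covariate cannot separate fat tissue from stage. What part fat tissue has in these values was not tested. In whole kidneys a change in cell numbers and a change in RNA per cell cannot be told apart.

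Genes that supply or follow these enzymes were read as lists set by function, to be held against the 21.2% of all genes that rose and the 19% that fell from E19 to P35. Of 10 genes of UDP-glucuronate supply and use, 7 rose and none fell (median 1.01), led by Akr1a1 (2.41 ± 0.29), which reduces glucuronate, Slc35d2 (1.83 ± 0.30), a nucleotide sugar transporter, Uxs1 (1.77 ± 0.42), which makes UDP-xylose, and Miox (1.09 ± 0.30), which oxidises inositol in the kidney. Of 8 genes of sulfate donor supply and sulfatases, 4 rose: Arsb (3.09 ± 0.27), a lysosomal sulfatase, Papss2 (3.08 ± 0.43), which makes PAPS, Sumf1 (1.25 ± 0.15), which activates sulfatases, and Bpnt1 (1.15 ± 0.20), which clears the used donor. Slc35b2, a PAPS transporter, fell (-0.54 ± 0.18) and is named after its value was seen.

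Of 11 genes of the route that leads to mercapturates, 7 rose and 1 fell (median 1.34). Those with the largest changes were Gclm (3.19 ± 0.35), a subunit of the enzyme that starts glutathione synthesis, Acy1 (2.66 ± 0.29), an aminoacylase that can remove the acetyl group, Dpep1 (2.45 ± 0.22), a dipeptidase of the brush border, and Lap3 (1.95 ± 0.24), an aminopeptidase. The one that fell was Anpep (-1.14 ± 0.19), another brush border peptidase, named after its value was seen.

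Other conjugating enzymes gave 9 rises and 0 falls of 17 (median 0.98). Baat (5.04 ± 0.65), which joins bile acids to taurine or glycine, Inmt (3.34 ± 0.47), an amine N-methyltransferase, Acsm3 (3.18 ± 0.83), a medium-chain acyl-CoA synthetase, and Nat1 (2.37 ± 0.60), an arylamine acetyltransferase, led them. Inmt was also called from P21 to P35 (2.57 ± 0.47, adjusted p = 0.00502). Of 12 other esterases and hydrolases 7 rose and none fell (median 1.14), led by Ephx2 (2.91 ± 0.25), the soluble epoxide hydrolase, Afmid (2.66 ± 0.26), Bphl (2.51 ± 0.26) and Nceh1 (2.39 ± 0.20), a cholesterol ester hydrolase. Of 13 transcription factors of xenobiotic response and proximal tubule identity, 7 rose and none fell (median 0.93), led by the bile acid receptor Nr1h4 (3.03 ± 0.24), the xenobiotic receptor Nr1i2 (2.14 ± 0.47), Cebpa (1.72 ± 0.46) and Ppara (1.05 ± 0.18). Of the proximal tubule markers 5 of 11 rose and none fell (median 0.55). Of other marker lists over this span, 1 rose and 1 fell of 6 adrenal genes (median 0.00), 1 fell of 7 endothelial genes (0.12), 1 rose and 1 fell of 6 leukocyte genes (0.08), and none of 4 sex-linked genes was called. From P21 to P35 no gene of these lists but Inmt was called by limma.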

How the data were processed

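RNA of mouse kidney and of a common reference was hybridised on 32 two-colour arrays, and the labels name no dye swap. The authors deposited a ratio for every probe on every array, taken to be on the log10 scale because values run from -3.25 to 4.00, which as log2 would cap the ratio at 16-fold. Values were multiplied by 3.32 to give log2. How spots were extracted, background-corrected and normalized is not given in the sources used here. Neither is the direction of the ratio, which was taken as kidney (Cy5) over reference from the dyes in the labels and the high ratios of proximal tubule markers. Exact zeros made up 10.8% to 23.1% of an array's values and were treated as not measured, although their meaning is not stated. Spot intensities were not used here, so background and saturation could not be checked.

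Of 45220 probes 202 had no value, and 56 with several symbols were left out. Symbols come from the platform annotation, and 0 needed updating. Each gene was summarised as the mean of those probes measured on all 32 arrays, or else that of the probe measured on most arrays, which gave 18999 genes, 15149 of them on all arrays. The plain mean of all probes is an alternative.

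All arrays entered 1 fit by limma 3.58.1 in R 4.3.3, with a mean for each stage. Its p-values were adjusted by Benjamini-Hochberg across all genes measured on at least 2 arrays of each stage compared. Tables and figures used Python 3.11.15 and matplotlib 3.10.9. The fit was tested on simulated data with independent noise, where only genes measured on all arrays were changed. That simulation held no image run or Xist differences, so it cannot judge calls that depend on these or on fewer arrays. Stages come from the sample titles. Members named with single arrays are, per family, up to 3 with the largest called rise and fall from E19 to P35, the largest called change in each shorter span, and up to 2 that passed only the F test. Ces1c, Ces2e and others shown by array outside this rule were chosen after their values were seen. In the lists of related genes, up to 4 with the largest called change are named. The members and the lists were chosen with earlier results of these data known, and the step from P21 to P28 was added after seeing the stage courses. Alternatives covered zeros, probes, scaling, image run, array weights, the Xist and adipose covariates and each array left out.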

Additional observations from a re-analysis of the deposited data

Results flagged for a closer look

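Among 80 groups of 4 arrays (a member at P03 or P35), 3 had 1 array far from the other 3 by Dixon's test, and chance gives about 1 in 20. Groups of 3 arrays were not tested. Sult1d1 on P35 array 3 was 8.86, against 10.68 to 10.99 on the others. Sult1a1 on P03 array 1 was 6.07, against 5.02 to 5.18. Ces2a on P35 array 4 was 0.40, against 0.28 to 0.29, a gap of little size in a very tight group.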

How the results depend on the processing

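No called member changed direction under any alternative run. Counts of members called that moved by more than 1.5 times were as follows. For P35 minus E19 (27), 0 were called within image run 2, where the spread rests on 1 pair of P07 arrays and no adjusted p of a called member was under 0.101. For P01 minus E19 (0), 1 was called with a single probe per gene, 1 after quantile normalization and 7 with array weights. For P07 minus P01 (9), 5 were called with the adipose covariate. For P35 minus P21 (7), 0 were called within image run 3, 0 with only the 2 stages in the fit and 16 with array weights. For P28 minus P21 (6), 0 were called within image run 3, 0 with only the 2 stages, 14 with array weights and 1 with the Xist covariate. The F test gave 39 with array weights and 23 to 31 under the other settings (26).

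With 1 array left out the counts ran from 24 to 30 for the F test, from 23 to 26 for P35 minus E19, from 0 to 1 for P01 minus E19, from 6 to 9 for P07 minus P01, from 4 to 7 for P21 minus P07, from 5 to 7 for P35 minus P21 and from 1 to 6 for P28 minus P21. The low counts of 4 came without P07 array 1 or 2, and those of 1 came without P28 array 1 or 2 or any 1 of the P21 arrays. The cause of these moves was not tested.

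No paired analysis was possible because the labels give no replicate numbers that the stages share. Image run 1 holds at most 1 array of a stage, so values within it carry no test. Signal over background was not analysed here.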
